A study of Homo sapiens with 6 samples.

Results

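The 49 genes described here encode the machinery that copies DNA and the enzymes that supply its building blocks: the MCM helicase subunits, the factors that load it at origins, the replicative polymerases with their clamp and clamp loader, the ligase and flap nuclease of the lagging strand, nucleotide synthesis enzymes and the proteins that rebuild chromatin behind the fork. They were taken as a fixed list of symbols and matched to the Ensembl identifiers of the deposited expression table through GENCODE 29. All 49 were found among the 58735 genes of the table, and all 49 had a mean FPKM of at least 1, the level above which 12517 genes were tested (FPKM is the number of sequenced fragments scaled by transcript length and by the library's total).

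The 6 libraries came from total RNA of HOK-16B, an immortalized cell line derived from keratinocytes of the human mouth, where these epithelial cells form the surface lining. There were 3 libraries from cells treated with CBD (cannabidiol, a cannabinoid that does not intoxicate) and 3 from cells given the vehicle excipient alone. According to the series description both groups were exposed to an inflammatory stimulus after the pretreatment. Stimulus, dose, time and passage are not named. Nor do the labels tell whether replicates came from separate cultures, and p-values then reflect the spread among these 6 libraries alone, which may be technical. Titles and the cell line tag give HOK-16B for every sample while the free-text descriptions number the line upward, and 1 line was assumed. No unstimulated cells were analysed here. HOK-16B cells carry human papillomavirus genes, whose products bind RB and release E2F, a limit of the line as a model of normal mucosa.

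The libraries held 18213784 to 22158614 fragments counted in genes, and the 49 genes took 99773 to 121598 of them per library. Keratinocyte markers were abundant: the summed level of 11 of them was 12552 to 13136 FPKM in CBD libraries and 10299 to 12054 FPKM in vehicle libraries. Markers of endothelium summed to at most 0.159 FPKM in either group, and CD3E, AIF1 and TYR were listed at 0. The 7 fibroblast markers summed to 9.31 to 9.41 FPKM in CBD libraries and 7.40 to 8.14 FPKM in vehicle libraries, of which only COL1A1 had a mean of at least 1. The 7 immune markers summed to 2.41 to 3.34 FPKM with CBD and 2.27 to 3.51 FPKM with vehicle, and the 5 melanocyte markers to 1.93 to 2.04 FPKM with CBD and 1.60 to 2.01 FPKM with vehicle. The part of these marker differences in the results was not tested. Vehicle replicate 1 stood apart from the other libraries, with a first principal component score of -25.1 against 10.3 to 12.7 for CBD libraries and -9.36 and 0.739 for the other vehicle libraries. The mean transcript GC content per fragment was 50.7% ± 0.0437 in CBD libraries and 49.97% ± 0.386 in vehicle libraries (SD, n = 3 each; exact permutation p = 0.1, the smallest that 3 against 3 allows), so GC content and treatment moved together.

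Replication is prepared in G1, when the origin recognition complex, CDC6 and CDT1 load a double hexamer of MCM2 to MCM7 onto each origin. At the start of S phase CDC45 and the GINS complex join MCM to form the active helicase, and geminin, the product of GMNN, then blocks CDT1 so that no origin is loaded again. Many of these genes are known targets of E2F, the transcription factor family that RB holds back, and their mRNA rises as keratinocytes of the basal layer enter the cycle and falls as they differentiate.

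Promoter sequence was not used to choose the genes. RefSeq promoter windows on GRCh38.p14, running from 250 bases before to 50 bases after an annotated start, were matched for 43 of the 49 genes, with 56 windows in all because 10 genes have several starts. They were searched on both strands for the E2F words TTTCCCGC, TTTGGCGC, TTTCGCGC and TTTGCCGC. At least 1 word was present in 20 of the 43 genes (46.5%), against 6.96% of the tested genes with a window and 3.99% of all genes with a window. Among the further genes of the same pathways described below, 69 had a window and 24.6% of those held a word. The CCAAT box was found in 60.5% of the 43 genes and in 43.5% of tested genes, the GC box GGGCGG in 76.7% of the 43 and in 78.6% of tested genes, and TATAAA in 6.98% of the 43 and in 7.65% of tested genes. The median GC content of the windows was 65.8% for the 43 genes and 65.0% for tested genes. A match is a description of the sequence and not evidence of binding.

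The windows of CDT1 and GMNN, a licensing factor and its inhibitor, ORC3, an origin recognition subunit, and MCM6, which has the most matches, are shown 5′ to 3′ along the gene with the E2F words in capitals. In CDT1 the word starts 35 bases before the annotated start, in GMNN 80 bases before and in ORC3 12 bases before. GMNN has another window, at another annotated start (chr6:24774687-24774986), which holds 0 E2F words and is not shown. In MCM6 4 words form 2 overlapping pairs that start 152 and 90 bases before the start.
CDT1 (chr16:88803539-88803838, plus strand): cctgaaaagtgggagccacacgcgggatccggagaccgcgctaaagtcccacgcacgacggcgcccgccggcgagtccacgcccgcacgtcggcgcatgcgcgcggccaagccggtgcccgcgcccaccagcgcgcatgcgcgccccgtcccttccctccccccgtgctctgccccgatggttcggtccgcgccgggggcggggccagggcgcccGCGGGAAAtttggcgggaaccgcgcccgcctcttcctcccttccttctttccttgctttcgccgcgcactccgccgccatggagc
GMNN (chr6:24775163-24775462, plus strand): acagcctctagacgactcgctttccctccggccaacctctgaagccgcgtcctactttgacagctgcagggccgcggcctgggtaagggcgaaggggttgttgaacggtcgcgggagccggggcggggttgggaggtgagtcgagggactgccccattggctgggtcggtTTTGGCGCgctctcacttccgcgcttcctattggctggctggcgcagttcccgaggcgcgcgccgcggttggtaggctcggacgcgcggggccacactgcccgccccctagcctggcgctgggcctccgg
ORC3 (chr6:87589885-87590184, plus strand): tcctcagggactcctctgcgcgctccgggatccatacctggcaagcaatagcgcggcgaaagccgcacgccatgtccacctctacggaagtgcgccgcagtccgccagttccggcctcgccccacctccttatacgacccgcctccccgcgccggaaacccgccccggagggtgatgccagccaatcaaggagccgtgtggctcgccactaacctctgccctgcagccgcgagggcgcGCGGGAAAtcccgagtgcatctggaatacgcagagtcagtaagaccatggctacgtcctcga
MCM6 (chr2:135876394-135876693, minus strand): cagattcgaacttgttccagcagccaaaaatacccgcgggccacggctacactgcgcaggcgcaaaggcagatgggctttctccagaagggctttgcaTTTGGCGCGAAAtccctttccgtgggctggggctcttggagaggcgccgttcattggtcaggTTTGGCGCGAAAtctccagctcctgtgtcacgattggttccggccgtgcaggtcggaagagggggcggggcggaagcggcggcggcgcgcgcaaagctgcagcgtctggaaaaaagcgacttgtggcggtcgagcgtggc

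The comparison asked whether CBD pretreatment altered the expression of this machinery in stimulated keratinocytes. None of the 49 genes passed over all genes tested (limma, Benjamini-Hochberg adjusted p of 0.0557 to 0.974), where 0.352% of all tested genes passed. By limma 21 of the 49 had an unadjusted p under 0.05, 17 of them lower and 4 higher with CBD (42.9% of the genes, against 31.4% of all tested genes; 16% of all tested genes were lower and 15.4% higher). With limma-voom on reads recovered from the FPKM values, chosen as an alternative, 10 passed: CDT1, POLD1 and TK1 were higher, and MCM10, GMNN, GINS1, ORC2, ORC3, ORC5 and RFC3 were lower. That is 20.4% of the list, where 13.9% of all tested genes passed by the same test, 7.26% higher and 6.69% lower. By limma, 4 of the 45 then tested passed when the filter was a mean FPKM of at least 5 (10.1% of all genes then tested). Of all 49, 10 passed without vehicle replicate 2 (20.4%, against 18.8% of all tested genes). With library quality weights 23 passed (46.9%, against 34% of all tested genes). The log2 difference, computed on log2(FPKM + 1), lay below 0 for 32 of the 49, or 65.3% against 52.6% of all tested genes. Its median was -0.10 over the 49 genes and -0.01 over all tested genes. The values of the 3 CBD and 3 vehicle libraries did not overlap for 30 of the 49 (40.7% of all tested genes), with CBD lower for 22 (21.9% of all) and higher for 8 (18.7% of all).

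**Figure D1:**
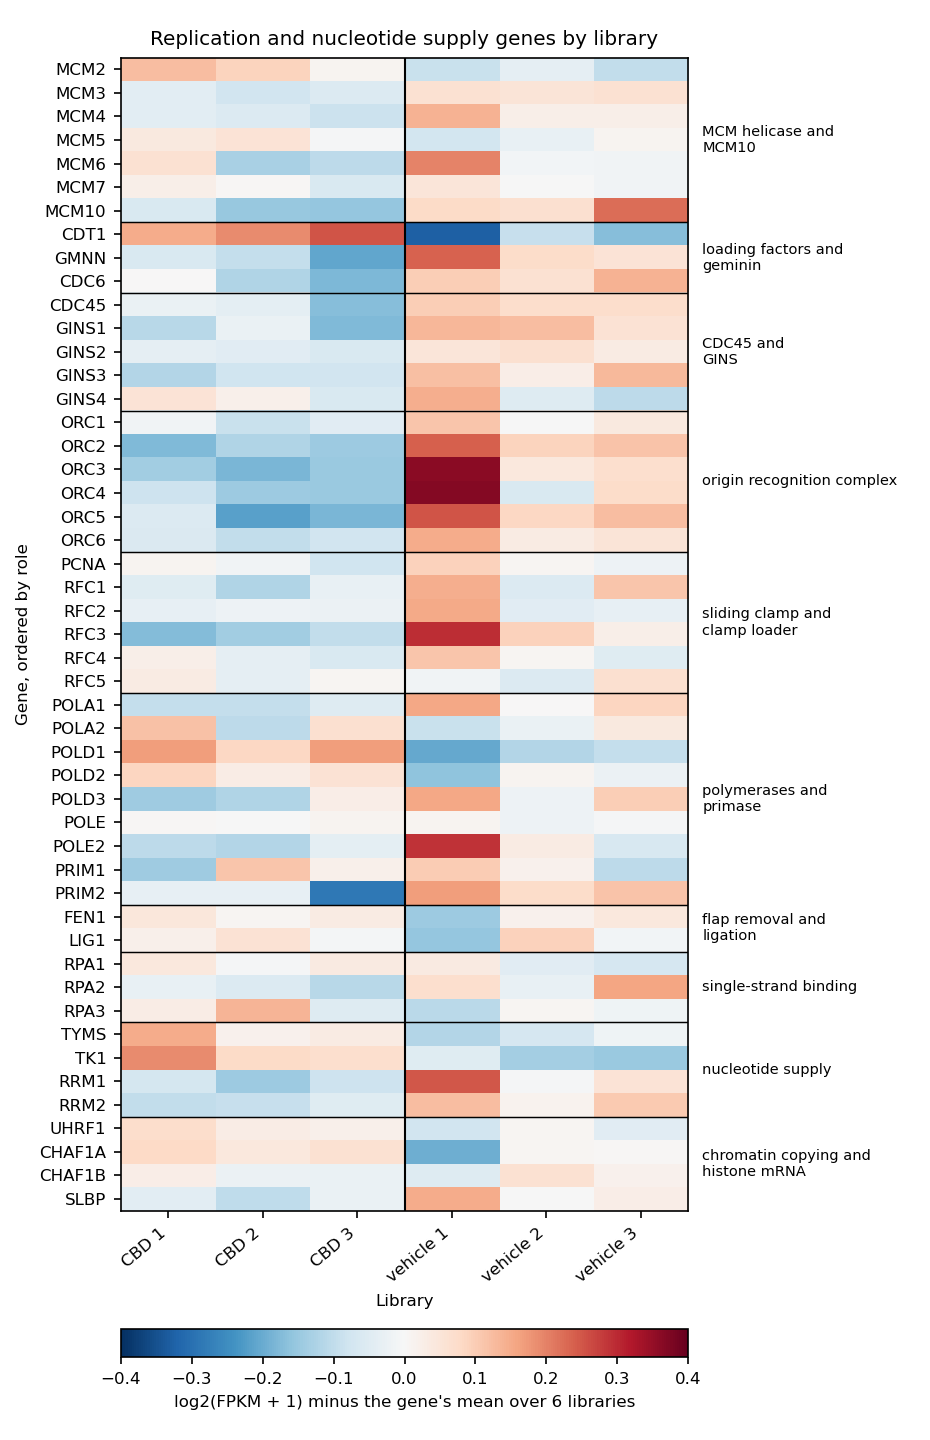
Level of each of the 49 genes in each library, as log2(FPKM + 1) minus the gene's mean over the 6 libraries. Rows are genes ordered by role and columns are libraries, CBD left of the line and vehicle right of it. The 6 origin recognition subunits are blue in the CBD columns, and 26 of the 49 genes have their highest value in vehicle replicate 1.

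The differences ran from -0.31 (ORC3) to 0.39 (CDT1), and no gene differed 2-fold. Summed over the 49 genes the level was 1397, 1355 and 1347 FPKM in CBD replicates 1 to 3, against 1425, 1365 and 1373 FPKM in vehicle replicates 1 to 3. The sums overlapped between groups (exact permutation p = 0.5). In bulk RNA, fewer cells in S phase and less mRNA per cell cannot be told apart.

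In the helicase and its partner MCM10, 7 genes in all, 5 lay below and 2 above the vehicle level, and 0 passed by limma. MCM2 had 59.8, 58.4 and 55.2 FPKM in CBD libraries, against 51.5, 53.4 and 51.1 FPKM in vehicle libraries. Every CBD value lay above every vehicle value, and the difference was 0.15 ± 0.05 (SE; limma adjusted p = 0.104), or 0.02 with the GC trend removed. MCM10, which helps to switch the helicase on and holds polymerase alpha at the fork, had 8.17, 7.61 and 7.60 FPKM with CBD, against 9.09, 9.01 and 10.2 FPKM with vehicle. The CBD values all lay lower, and the log2 difference was -0.24 ± 0.06 (SE; limma adjusted p = 0.0734; limma-voom adjusted p = 0.0361).

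The other helicase subunits gave no single direction as deposited. MCM3 averaged 61.5 ± 0.775 FPKM with CBD and 66.7 ± 0.231 FPKM with vehicle, and MCM4 averaged 59.7 ± 0.957 FPKM with CBD and 65.1 ± 3.09 FPKM with vehicle (SD, n = 3 each). Both were lower in every CBD library, with limma adjusted p of 0.114 and 0.149. MCM5, MCM6 and MCM7 overlapped between groups, with log2 differences of 0.06, -0.12 and -0.02. With the GC trend removed MCM3, MCM4, MCM5, MCM6 and MCM7 lay at -0.14, -0.11, -0.06, -0.01 and -0.12 (limma adjusted p of 0.143 to 0.959). The 6 subunits enter the ring in equal number, but their mean levels per length over all libraries spread from 18.9 FPKM for MCM5 to 71.3 FPKM for MCM7. MCM2 and MCM7 are among 15 of the 49 genes that overlap another annotated gene with a mean FPKM of at least 1. Whether reads were counted by strand is not given in the sources used here, so reads of such neighbours may not be told apart.

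The licensing factor CDT1 and its inhibitor geminin lay on opposite sides of the vehicle level. CDT1, the loading factor of the helicase, on chromosome 16 (88803213 to 88809258, plus strand, GENCODE 29 gene span on GRCh38), had 33.5, 34.4 and 35.9 FPKM in CBD libraries, against 23.8, 28.2 and 26.6 FPKM in vehicle libraries. All CBD values were higher, and the difference of 0.39 ± 0.07 was the largest in size of the 49 by limma (SE; 95% interval 0.23 to 0.56; limma adjusted p = 0.0557; limma-voom adjusted p = 0.0128). GMNN, on chromosome 6 (24774931 to 24786099, plus strand), had 22.0, 21.5 and 19.8 FPKM with CBD, against 27.2, 24.2 and 23.9 FPKM with vehicle. All CBD values were lower here (-0.24 ± 0.07, SE; limma adjusted p = 0.0841; limma-voom adjusted p = 0.0443). The ratio of CDT1 to GMNN was 1.52, 1.60 and 1.82 in CBD libraries, against 0.873, 1.16 and 1.11 in vehicle libraries. The ratios did not overlap, with means of 1.65 ± 0.154 with CBD and 1.05 ± 0.155 with vehicle (SD, n = 3 each; exact permutation p = 0.1, the smallest possible, and 0.3 adjusted over the 6 ratios computed).

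CDT1 is a GC-rich transcript (65.2%) and GMNN a GC-poor one (41.4%). With the GC trend removed from each library, the CDT1 difference was 0.12, the GMNN difference -0.11 and the log2 difference of their ratio 0.24, against 0.66 as deposited. CDC6, the other loading factor, averaged 10.8 ± 0.752 FPKM with CBD and 12.5 ± 0.353 FPKM with vehicle, without overlap (SD, n = 3 each; limma adjusted p = 0.0908).

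**Figure D2:**
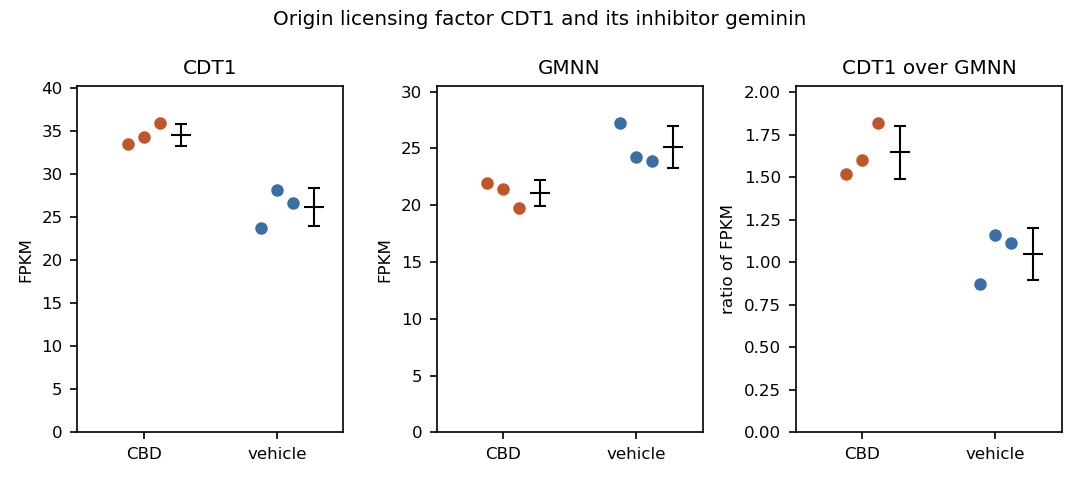
FPKM of CDT1 and of GMNN and their ratio in the 3 CBD and 3 vehicle libraries. Points are libraries, and the bar beside them is the mean with SD. CDT1 lies at 33.5 to 35.9 FPKM with CBD and 23.8 to 28.2 FPKM with vehicle, GMNN at 19.8 to 22.0 FPKM with CBD and 23.9 to 27.2 FPKM with vehicle.

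The origin recognition complex, which marks origins on chromosomes, was lower with CBD in all 6 subunits. The 6 CBD groups did not overlap their vehicle groups, as in 21.9% of all tested genes, and 0 of the 6 passed by limma over all genes (adjusted p of 0.0584 to 0.221). ORC3 had 12.4, 11.97 and 12.3 FPKM in CBD libraries, against 17.9, 14.2 and 14.4 FPKM in vehicle libraries. The CBD values lie close together and vehicle replicate 1 is far above the rest. The difference was -0.31 ± 0.09 (SE; limma adjusted p = 0.0842), and -0.21 without vehicle replicate 1 (limma adjusted p = 0.0577). ORC5, an ATPase subunit of the ring, had 5.48, 4.79 and 4.93 FPKM with CBD, against 7.02, 6.13 and 6.34 FPKM with vehicle. Each CBD value was below each vehicle value, with a difference of -0.30 ± 0.07 (SE; limma adjusted p = 0.0648; limma-voom adjusted p = 0.0323).

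ORC2 averaged 7.12 ± 0.159 FPKM with CBD and 8.97 ± 0.562 FPKM with vehicle (SD, n = 3 each; limma adjusted p = 0.0584; limma-voom adjusted p = 0.0199). ORC4 averaged 3.87 ± 0.128 FPKM with CBD and 4.85 ± 0.908 FPKM with vehicle, and ORC6 11.3 ± 0.176 FPKM with CBD and 12.7 ± 0.581 FPKM with vehicle. ORC1, the subunit known to be degraded and remade with each cycle, had 12.7 ± 0.355 FPKM with CBD and 13.7 ± 0.582 FPKM with vehicle. Its difference as deposited was the smallest of the 6, at -0.10 (limma adjusted p = 0.221). With the GC trend removed it was not, at -0.10 against -0.08 for ORC4 and for ORC6. The ratio of ORC1 to ORC2 was 1.79 ± 0.0895 with CBD and 1.53 ± 0.0328 with vehicle, without overlap (SD, n = 3 each; exact permutation p = 0.1, adjusted 0.3). Its log2 difference was 0.22 as deposited and 0.06 with the GC trend removed. Transcripts of ORC2 to ORC6 have a GC content of 37.6% to 45.3%, that of ORC1 is 50.7%, and 86.3% of all tested genes under 45% GC lay below 0. With the GC trend removed the median difference of the complex was -0.13, against -0.27 as deposited. Every subunit tested stayed below 0 in the 18 alternative settings tried, where ORC4 falls under a filter at a mean FPKM of at least 5.

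**Figure D3:**
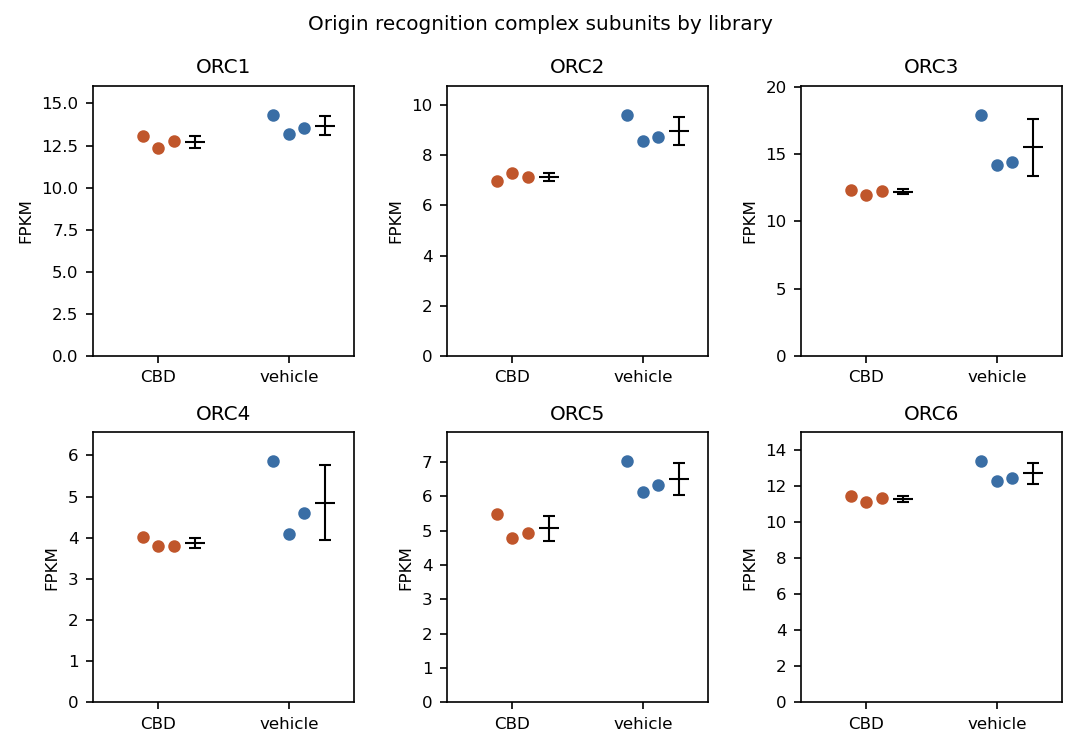
FPKM of the 6 origin recognition complex subunits in the 3 CBD and 3 vehicle libraries, each panel with its own linear axis from 0. Points are libraries, and the bar is the mean with SD. In each panel the 3 CBD values lie below the 3 vehicle values, and vehicle replicate 1 is the highest.

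Of CDC45 and the 4 GINS genes, whose products complete the active helicase, 4 lay lower without overlap, where 21.9% of all tested genes did, and 0 passed by limma. GINS1 had 16.6, 17.6 and 15.8 FPKM in CBD libraries, against 19.9, 19.7 and 18.8 FPKM in vehicle libraries (-0.21 ± 0.05, SE; limma adjusted p = 0.0768; limma-voom adjusted p = 0.0423). GINS3 had 4.06, 4.20 and 4.22 FPKM with CBD, against 4.98, 4.60 and 5.01 FPKM with vehicle (-0.18 ± 0.05, SE; limma adjusted p = 0.0880). In both genes every CBD value was below every vehicle value. CDC45 averaged 17.5 ± 1.004 FPKM with CBD and 19.6 ± 0.229 FPKM with vehicle, and GINS2 15.3 ± 0.140 FPKM with CBD and 16.4 ± 0.185 FPKM with vehicle (SD, n = 3 each). GINS4 overlapped, at 4.83 ± 0.233 FPKM with CBD and 4.80 ± 0.539 FPKM with vehicle. With the GC trend removed the differences were -0.10 for GINS1, -0.11 for GINS2, -0.16 for GINS3, -0.17 for CDC45 and 0.02 for GINS4 (limma adjusted p of 0.166 to 0.929).

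Of the sliding clamp and the 5 clamp loader genes 1 was lower without overlap, as were 21.9% of all tested genes. By limma 0 passed. PCNA, the ring that tethers polymerases to DNA, was the second most abundant of the 49 after TK1. It had 139 ± 4.52 FPKM with CBD and 145 ± 5.96 FPKM with vehicle (SD, n = 3 each; limma adjusted p = 0.501), and the groups overlapped. The 95% interval of its log2 difference was -0.18 to 0.07. RFC3, a small subunit of the clamp loader, had 15.3, 15.7 and 16.2 FPKM in CBD libraries, against 21.6, 18.6 and 17.7 FPKM in vehicle libraries. Its groups did not overlap, with the highest value in vehicle replicate 1 (-0.27 ± 0.08, SE; limma adjusted p = 0.0831; limma-voom adjusted p = 0.0392). RFC1, the large subunit, had 18.4, 17.5 and 18.6 FPKM with CBD, against 21.2, 18.3 and 20.7 FPKM with vehicle, and overlapped (-0.13 ± 0.07, SE; limma adjusted p = 0.202). RFC2, RFC4 and RFC5 overlapped as well, with differences of -0.05, -0.05 and 0.00. RFC1 over the mean of RFC2 to RFC5 was 0.935 ± 0.0279 with CBD and 0.969 ± 0.0610 with vehicle (SD, n = 3 each; exact permutation p = 0.5).

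Among 9 polymerase and primase genes, 5 lay below and 4 above the vehicle level, and 0 passed by limma. POLD1, the catalytic subunit of polymerase delta, on chromosome 19 (50384204 to 50418016, plus strand), had 22.6, 21.3 and 22.6 FPKM in CBD libraries, against 17.3, 18.4 and 18.7 FPKM in vehicle libraries. All CBD values were higher, by 0.28 ± 0.05 (SE; limma adjusted p = 0.0574; limma-voom adjusted p = 0.0182). After removal of the GC trend its difference was 0.02 (limma adjusted p = 0.902). PRIM2, the large primase subunit, had 7.91, 7.91 and 6.47 FPKM with CBD, against 9.23, 8.59 and 8.86 FPKM with vehicle (-0.24 ± 0.08, SE; limma adjusted p = 0.108). CBD replicate 3 is the lowest library, and with the GC trend removed the difference was -0.08 (limma adjusted p = 0.634).

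As deposited, subunits of one polymerase did not move as a block. For polymerase delta, POLD2 averaged 40.6 ± 0.819 FPKM with CBD and 37.4 ± 2.39 FPKM with vehicle (SD, n = 3 each), higher without overlap. POLD3 averaged 13.6 ± 0.938 FPKM with CBD and 15.3 ± 0.997 FPKM with vehicle (SD, n = 3 each), with overlap. Without overlap, 18.7% of all tested genes were higher and 21.9% lower. POLE, the catalytic subunit of the leading strand polymerase, stood at 8.32 ± 0.0437 FPKM with CBD and 8.26 ± 0.101 FPKM with vehicle. Its partner POLE2 stood at 6.09 ± 0.207 FPKM with CBD and 7.04 ± 1.04 FPKM with vehicle, with overlap. POLA1, the catalytic subunit of polymerase alpha, had 7.01 ± 0.139 FPKM with CBD and 7.97 ± 0.474 FPKM with vehicle, without overlap (limma adjusted p = 0.109). POLA2 and PRIM1 overlapped, with differences of 0.05 and -0.01. Within polymerases delta and epsilon the order of the differences as deposited was the order of transcript GC content. That content was 64.8%, 58.8% and 45.3% for POLD1, POLD2 and POLD3, and 55.5% and 39.8% for POLE and POLE2. Within polymerase alpha and primase the orders differed: POLA1 (42.7% GC) lay at -0.16, below PRIM1 (40.7% GC) at -0.01. With the GC trend removed POLD1, POLD2 and POLD3 lay at 0.02, -0.02 and -0.08, and POLE and POLE2 at -0.08 and -0.02.

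Of the 2 lagging strand and 3 single-strand binding genes 0 passed by limma. RPA2 alone did not overlap, with CBD lower, as in 21.9% of all tested genes. FEN1, the flap nuclease, had 70.8, 69.0 and 70.2 FPKM in CBD libraries, against 62.1, 69.5 and 70.8 FPKM in vehicle libraries. LIG1, the ligase that seals Okazaki fragments, had 12.8, 13.2 and 12.5 FPKM with CBD, against 11.2, 13.5 and 12.5 FPKM with vehicle. In both genes vehicle replicate 1 is the lowest library and the groups overlap (0.06 ± 0.06 and 0.05 ± 0.07, SE; limma adjusted p = 0.546 and 0.653), and both differences turn below 0 without that library or with the GC trend removed. RPA2, the middle subunit of the single-strand binding protein, had 38.4, 37.8 and 36.3 FPKM with CBD, against 41.1, 38.4 and 43.9 FPKM with vehicle, where the CBD values lie just under the lowest vehicle value (-0.13 ± 0.06, SE; limma adjusted p = 0.186, and 0.0217 with library quality weights). RPA3, the small subunit, had 9.35, 10.1 and 8.77 FPKM with CBD, against 8.41, 9.19 and 9.02 FPKM with vehicle, and RPA1, the large subunit, averaged 31.3 ± 0.565 FPKM with CBD and 30.2 ± 1.17 FPKM with vehicle (SD, n = 3 each). The RPA3 and RPA1 groups overlap. The span of FEN1 overlaps that of FADS2 on the same strand, which is expressed at a mean of 113 FPKM.

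Of the 4 nucleotide enzymes TK1 and TYMS were higher and RRM1 and RRM2 lower in every CBD library, and 0 passed by limma. Among all tested genes, 18.7% were higher and 21.9% lower without overlap. TK1, the S-phase thymidine kinase of the salvage pathway, was the most abundant of the 49 and had 173, 160.4 and 159 FPKM in CBD libraries, against 147, 138 and 137 FPKM in vehicle libraries. All CBD values were higher, by 0.22 ± 0.06 (SE; limma adjusted p = 0.0738; limma-voom adjusted p = 0.0292). TYMS, which makes thymidylate from deoxyuridylate, averaged 12.8 ± 0.697 FPKM with CBD and 11.5 ± 0.440 FPKM with vehicle, also without overlap (SD, n = 3 each; limma adjusted p = 0.162). RRM1, the large subunit of ribonucleotide reductase, had 65.5, 62.2 and 65.0 FPKM with CBD, against 82.0, 68.6 and 71.7 FPKM with vehicle. All CBD values were lower (-0.20 ± 0.07, SE; limma adjusted p = 0.121), and vehicle replicate 1 is well above the other libraries. RRM2, the small subunit whose level limits the enzyme in S phase, averaged 22.3 ± 0.438 FPKM with CBD and 25.0 ± 1.04 FPKM with vehicle, without overlap (limma adjusted p = 0.0931).

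The ratio of RRM2 to RRM1 was 0.347 ± 0.00997 with CBD and 0.339 ± 0.0214 with vehicle (SD, n = 3 each; exact permutation p = 0.7), and that of TK1 to TYMS 12.9 ± 0.163 with CBD and 12.2 ± 0.924 with vehicle (exact permutation p = 0.4). The TK1 transcript has a GC content of 61.7% and that of TYMS 50.9%, and after removal of the GC trend the differences were 0.02 for TK1, 0.13 for TYMS, -0.10 for RRM1 and -0.09 for RRM2 (limma adjusted p of 0.242 to 0.906). TYMS is overlapped on the opposite strand by ENOSF1 and TYMSOS, at 3.69 and 2.91 FPKM. CDC6 over ORC2 was 1.51 ± 0.133 with CBD and 1.395 ± 0.0885 with vehicle (SD, n = 3 each; exact permutation p = 0.4).

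Genes that restore chromatin on new DNA did not pass. CHAF1A, the large subunit of the histone chaperone CAF-1, had 25.2, 24.6 and 24.9 FPKM in CBD libraries, against 20.7, 24.0 and 23.9 FPKM in vehicle libraries. The CBD values lie just above the highest vehicle value, and vehicle replicate 1 is the lowest (0.12 ± 0.07, SE; limma adjusted p = 0.239). SLBP, which binds the stem-loop of replication-dependent histone mRNA, had 47.7, 45.7 and 48.2 FPKM with CBD, against 54.6, 49.1 and 50.01 FPKM with vehicle (-0.11 ± 0.06, SE; limma adjusted p = 0.205). The SLBP groups do not overlap either, with CBD lower. Without overlap, 18.7% of all tested genes were higher and 21.9% lower. UHRF1, which guides DNA methylation to new strands, averaged 23.7 ± 0.472 FPKM with CBD and 22.4 ± 0.694 FPKM with vehicle (SD, n = 3 each), higher without overlap. CHAF1B, the middle subunit of CAF-1, averaged 6.95 ± 0.163 FPKM with CBD and 7.04 ± 0.313 FPKM with vehicle (SD, n = 3 each), with overlap. With the GC trend removed the differences were 0.01 for CHAF1A, -0.10 for SLBP, -0.04 for UHRF1 and 0.01 for CHAF1B (limma adjusted p of 0.359 to 0.933).

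**Figure D4:**
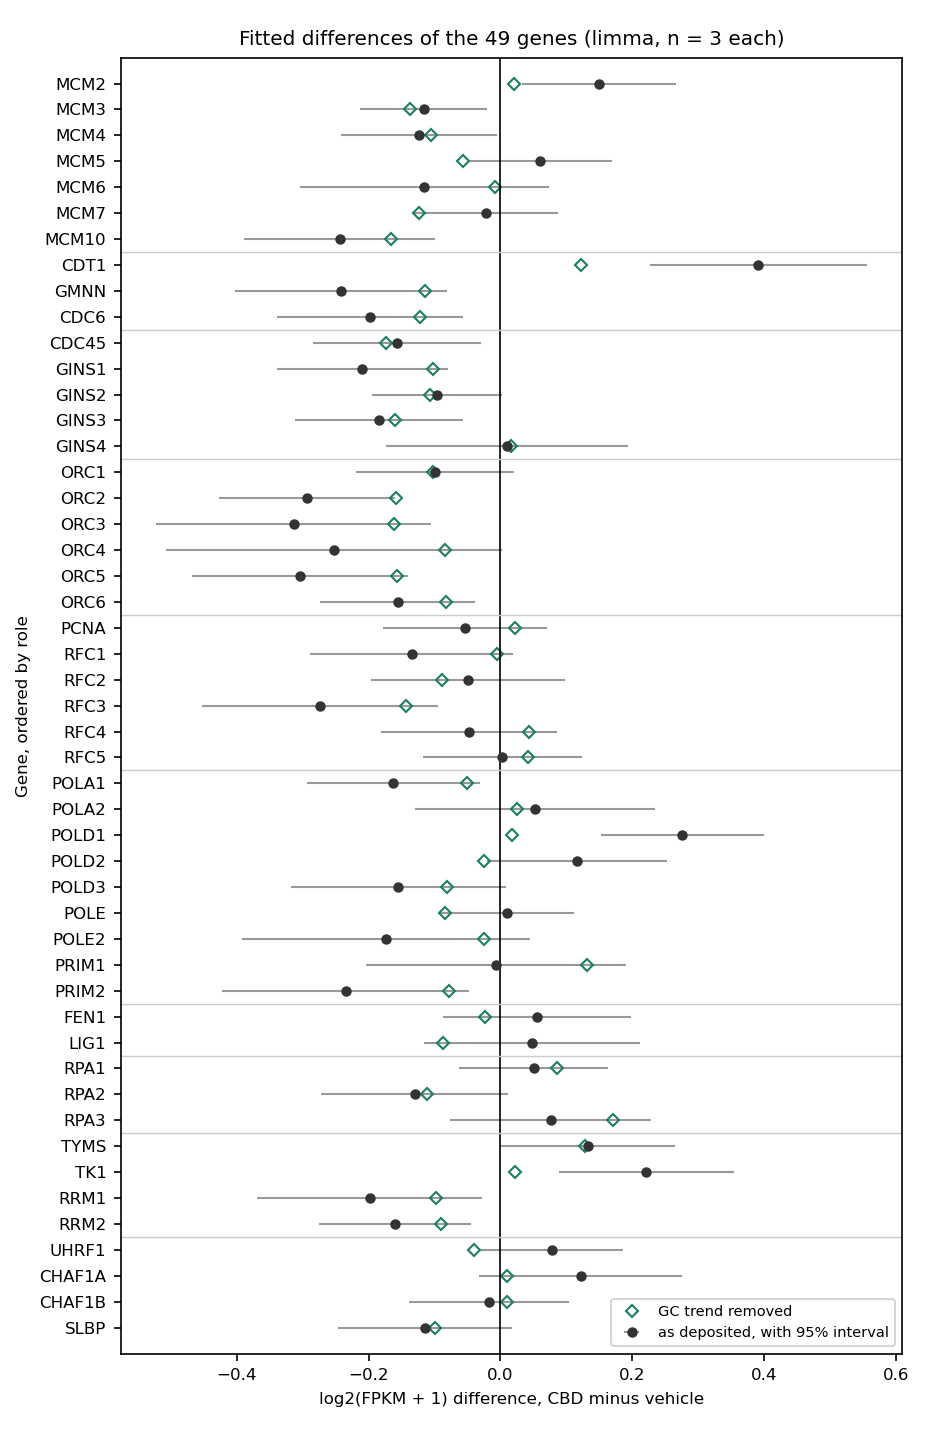
Fitted log2(FPKM + 1) difference, CBD minus vehicle, for the 49 genes ordered by role. Filled points with bars are values as deposited with 95% intervals, and open diamonds are values with the GC trend removed. CDT1, POLD1 and TK1 move from 0.39, 0.28 and 0.22 to 0.12, 0.02 and 0.02, while GINS3 and CDC45 stay at -0.16 and -0.17.

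The direction of the difference followed transcript GC content. Across the 49 genes, which share the same 6 libraries, Spearman's rho between GC content and log2 difference was 0.80, against 0.67 across all tested genes. Of the 16 genes with a GC content under 45%, 15 lay below 0, with a median of -0.20 against -0.14 for all tested genes in that range. Of the 11 with a GC content of 55% or more, 1 lay below 0 (MCM7), with a median of 0.12 against 0.17. Between 45% and 50% the medians were -0.13 over 14 genes and -0.05 over all tested genes, and between 50% and 55% they were -0.07 over 8 genes and 0.03 over all tested genes. In the 4 ranges the median of the replication genes thus lay below that of all tested genes.

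With the GC trend removed from each library, 34 of the 49 lay below 0 (69.4%, against 51.8% of all tested genes), with a median of -0.08 against -0.0048. None of the 49 then passed by limma, where 0.0639% of all tested genes did, and 12 had an unadjusted p under 0.05, 10 lower and 2 higher (24.5% of the genes, against 18.3% of all tested genes, 9.94% lower and 8.32% higher). The smallest adjusted p was then that of ORC2 (-0.16; limma adjusted p = 0.120). Without vehicle replicate 1 the median of the 49 was -0.07 as deposited and -0.05 with the GC trend removed, and 0 passed by limma in both. Vehicle replicate 1 held the highest value of 26 of the 49 genes (53.1%) and of 34.6% of all tested genes.

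**Figure D5:**
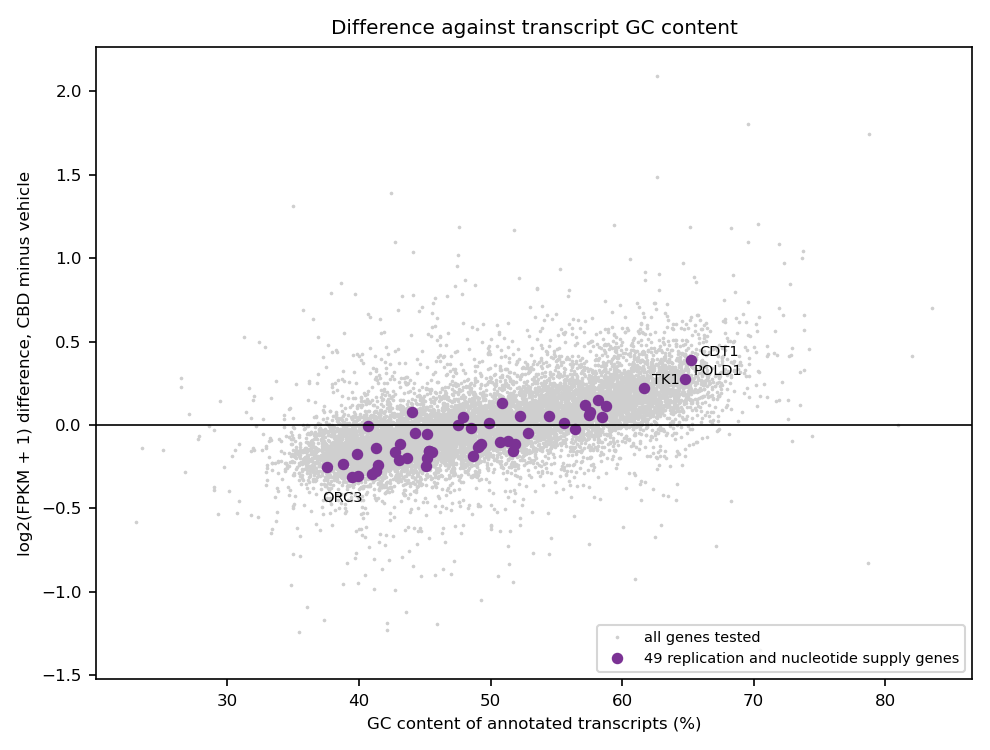
Log2(FPKM + 1) difference, CBD minus vehicle, against the GC content of annotated transcripts, for all tested genes (grey) and the 49 replication and nucleotide supply genes (purple). Spearman's rho is 0.80 over the 49 genes and 0.67 over all tested genes, with ORC3 (39.4% GC) at the low end and CDT1 (65.2% GC) at the high end.

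Of the 20 genes with an E2F word in the promoter 13 lay below 0 (median -0.11), and of the 23 without one 16 lay below 0 (median -0.10). The difference between these groups was not tested.

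A further 84 genes of the same pathways were listed by function, with earlier results of these data known. Of these, 82 were tested and 1 passed by limma, upward (0.352% of all tested genes passed). This was CDKN1C, an inhibitor of cyclin-dependent kinases, with 31.3, 34.0 and 30.9 FPKM in CBD libraries, against 16.8, 20.1 and 16.7 FPKM in vehicle libraries (limma adjusted p = 0.0452). The count of the 82 that passed was 0 in 9 of the 18 alternatives, which were equal FPKM sums, no filter on low values, no intensity trend, the replicate block, leaving out vehicle replicate 3 or any 1 of the CBD replicates, and the GC trend removed without vehicle replicate 1. The other kinase inhibitors of its family lay the same way but did not pass by limma. CDKN1A averaged 69.8 ± 3.85 FPKM with CBD and 53.6 ± 4.22 FPKM with vehicle (SD, n = 3 each, limma adjusted p = 0.0574, limma-voom adjusted p = 0.0128). CDKN1B averaged 23.4 ± 1.29 FPKM with CBD and 18.9 ± 1.19 FPKM with vehicle (SD, n = 3 each, limma adjusted p = 0.0633, limma-voom adjusted p = 0.0243). CCND1, the G1 cyclin that starts release of E2F, averaged 31.1 ± 0.456 FPKM with CBD and 39.7 ± 3.56 FPKM with vehicle (limma adjusted p = 0.0604, limma-voom adjusted p = 0.0148). By limma-voom 17 of the 82 passed, or 20.7%, where 13.9% of all tested genes did.

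Of 29 tested genes of nucleotide synthesis and salvage 22 lay below 0, where 52.6% of all tested genes did, and 0 passed by limma. ATIC, which closes the purine ring, averaged 22.4 ± 1.44 FPKM with CBD and 28.1 ± 1.33 FPKM with vehicle (SD, n = 3 each, limma adjusted p = 0.0604, limma-voom adjusted p = 0.0165). CAD, which starts pyrimidine synthesis, had 13.5 ± 0.314 FPKM with CBD and 16.1 ± 0.817 FPKM with vehicle (limma adjusted p = 0.0633, limma-voom adjusted p = 0.0249). CAD has a GC-rich transcript (57.7%), and its difference was -0.24 as deposited and -0.36 with the GC trend removed. In the other groups 10 of 12 licensing and firing regulators, 10 of 16 fork proteins, 5 of 7 chromatin assembly genes and 11 of 18 genes of G1/S control lay below 0. The median over the 82 genes was -0.12, and -0.06 with the GC trend removed, against -0.01 and -0.0048 over all tested genes. With the GC trend removed 54 of the 82 lay below 0 (65.9%, against 51.8% of all tested genes). Their median transcript GC content was 45.5%, against 48.9% for all tested genes.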

How the data were processed

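Paired-end libraries were made from total RNA of 3 CBD and 3 vehicle samples, per the labels' protocols. An aligner, HISAT2 2.0.5, and a counter, featureCounts 1.5.0-p3, are named in the submitters' processing notes. Build, annotation, strandedness and filters are not given in the sources used here. The deposited table holds FPKM per gene and library, made by the authors without pooling, per the file headers. Whole fragments were recovered from 100% of these values (within 0.01) with GENCODE 29 exon lengths, which gave the depths. A floor of 3 reads covers counting error only.

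Differences were fitted with limma 3.58.1 in R 4.3.3 on log2(FPKM + 1) for the 12517 genes averaging 1 FPKM or more, with group as the only term, an intensity trend, two-sided, Benjamini-Hochberg adjusted over all genes, threshold 0.05. The scale understates changes of low genes. GC content came from annotated transcripts, and its trend was a loess curve (span 0.3) per library. Groups followed the treatment label. Replicate pairs differed by more than sampling noise (chi-square of 3.41 to 22.8 per gene). The fit was tested on simulated data, which held no GC trend and no outlying library, unlike the real data. The members and lists were chosen with earlier results of these data known. Values in every library are given for the 2 members of each of 10 role groups with the largest absolute difference. Python 3.11.15, pandas 2.3.3, numpy 2.4.6 and matplotlib 3.10.9 were used.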

Additional observations from a re-analysis of the deposited data

How the results depend on the processing

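Over 18 alternatives the count of replication genes called by limma was 0 in 14. It was 4 of the 45 then tested (2 higher, 2 lower) at a mean FPKM of at least 5, where 10.1% of all genes were called. It was 10 with limma-voom on recovered reads, 23 (4 higher, 19 lower) with library quality weights (34% of all genes), and 0 to 10 when 1 library was left out. The 10 came without vehicle replicate 2 (2 higher, 8 lower; 18.8% of all genes). Calls among all genes, 44 as reported, were 4 with equal FPKM sums, 73 with quantile normalization, 0 with no filter on low values, 732 at a mean FPKM of at least 5, 1746 with limma-voom, 1 with no intensity trend, 8 with the GC trend removed, 4252 with library weights and 0 with the GC trend removed without vehicle replicate 1; leaving out 1 library gave 0 (vehicle replicate 3, CBD replicates 1 and 2) to 2351 (vehicle replicate 2). Of the 82 further genes, 1 as reported, these settings in the same order called 0, 1, 0, 8, 17, 0, 1, 48 and 0, and 0 to 29 when 1 library was left out. The 8 were out of the 71 tested at a mean FPKM of at least 5. The median of the 49 differences was -0.059 with library weights and -0.046 with the GC trend removed without vehicle replicate 1, and -0.12 to -0.07 when 1 library was left out.

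Same-numbered libraries of the 2 groups did not deviate together (correlations of -0.003, 0.052 and 0.024), so the numbers were not taken as pairs. With the replicate number as a block 0 replication genes, 0 of all genes and 0 of the 82 were called by limma.

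For the 20 genes described in every library, 317 alternative values kept direction and side of the threshold, 33 newly passed it and 9 reversed. FEN1 reversed with quantile normalization (-0.013), GC trend removed (-0.023), library weights (-0.0014), without vehicle replicate 1 (-0.0025) and with both (-0.056), and ran up to 0.091 when 1 library was left out. LIG1 reversed with the GC trend removed (-0.088), without vehicle replicate 1 (-0.017) and with both (-0.11), and ran up to 0.11. CHAF1A reversed with both (-0.021). For the ratios, alternatives were chosen after seeing the data: RRM2 over RRM1 ran from -0.018 (without vehicle replicate 1) to 0.069 on the log2 scale, and with the GC trend removed RFC1 over the mean of RFC2 to RFC5 was 0.032 and TK1 over TYMS -0.11. The cause was not tested for any of these.

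The 49 genes had 319 to 10945 reads per gene and library, so counting error weighs more in the low ones, such as PRIM1.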
